A study of Mus musculus with 8 samples.

Results

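The carboxylesterases are a family of serine hydrolases, and this account covers 10 of their genes in mouse liver, Ces1b, Ces1c, Ces1d, Ces1e, Ces1f, Ces1g, Ces2a, Ces2c, Ces2e and Ces3a, found by symbol among the 54232 genes of the count table. RNA was sequenced from whole liver of mice 6 months old, in 4 wild-type (WT) libraries and 4 libraries labelled Atp7b KO, after the gene of the copper pump mutated in Wilson disease. The study is about bile acids in that disease, by its title. The sources used here give neither strain, sex nor knockout allele, and do not say that libraries came from different animals, so the p-values cover the spread among these libraries, which may be technical.

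Carboxylesterases cleave ester, thioester and amide bonds. In hepatocytes most of them lie in the lumen of the endoplasmic reticulum, where they hydrolyse drugs and other foreign esters, and several also hydrolyse triacylglycerol or cholesteryl ester and so act on stored fat and on lipoprotein assembly. Rodents carry many more copies than humans do, arranged in tandem, and the copies differ in substrate and in whether the protein stays in the cell or is secreted.

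All 10 genes lie on mm10 chromosome 8, in a pair of clusters. The Ces1 genes are on the minus strand, from Ces1b (93056728 to 93080017) through Ces1c, Ces1d, Ces1e and Ces1f to Ces1g (93302369 to 93337308). The Ces2 and Ces3 genes are on the plus strand, from Ces2a (104734003 to 104741634) through Ces2c and Ces2e to Ces3a (105048601 to 105058413). The targeted gene Atp7b lies on the same chromosome (21992785 to 22060305). Between members, coding sequences were 73.7% to 89.2% identical within Ces1 (15 pairs), 82.9% to 84.2% within Ces2 (3 pairs) and 60.6% to 63.9% between subfamilies (27 pairs). The closest pair was Ces1b and Ces1c, at 89.2%.

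Ces1b and Ces1c share a stretch upstream of their starts, and their RNA moved in opposite directions in KO, so that stretch is shown here. RefSeq upstream windows of 250 bases on GRCm38.p6 were aligned. RefSeq lists 2 starts for Ces1b, and the window of the upstream one was used. Over all its 250 bases it was 52.5% identical to that of Ces1c, against 81.3% for the overlapping window of the downstream start. The stretch shown is the best local alignment, in which 138 of 160 columns (86.2%) were identical. Capitals mark bases with no identical partner in the other gene. The Ces1b stretch is chr8:93080018-93080161, which ends at the base before the annotated start of Ces1b, and the Ces1c stretch is chr8:93131371-93131530, which ends 87 bases before the start of Ces1c, both on the minus strand.
Ces1b: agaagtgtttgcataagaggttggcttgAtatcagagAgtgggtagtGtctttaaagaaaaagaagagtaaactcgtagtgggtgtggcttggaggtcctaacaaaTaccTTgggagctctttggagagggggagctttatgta
Ces1c: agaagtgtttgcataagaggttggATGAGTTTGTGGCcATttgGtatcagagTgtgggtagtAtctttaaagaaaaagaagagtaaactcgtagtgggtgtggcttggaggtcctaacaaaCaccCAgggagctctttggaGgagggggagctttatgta
The differing bases were 6 in Ces1b and 22 in Ces1c, most of the latter being bases that Ces1b lacks. For Ces2a and Ces2c, which also changed in opposite directions, 140 of 194 aligned columns (72.2%) were identical.

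Total counts were 9880253 to 27530506 in WT and 14583961 to 18423836 in KO. WT replicate 3 stood apart, with correlations of log2 CPM (counts scaled to library size) of 0.925 to 0.944 with the other WT libraries against 0.975 to 0.986 among those, so values without it are given where they differ. Atp7b read 28.9, 32.0, 9.63 and 27.4 CPM in WT replicates 1 to 4 and 8.76, 8.91, 6.50 and 7.15 CPM in KO (log2 fold change -1.65 ± 0.32 SE, adjusted p = 0.00313 by edgeR). The targeted gene was thus low in WT replicate 3 too, though above the highest KO library. Of the 9 intestinal and pancreatic markers, 4 had no read in any WT library and 2, Cpa1 and Prss1, had none in any library. Fabp2 averaged 234 CPM in WT and 166 in KO and Cela1 43.2 and 37.5 CPM. Vil1 rose from 0.296 CPM in WT to 2.77 in KO (log2 fold change 3.27, adjusted p = 3.91e-04 by edgeR).

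The family did not move as one. Of the 10 members, 6 were lower in KO (Ces1c, Ces1d, Ces1e, Ces1f, Ces2a and Ces3a) and 3 were higher (Ces1b, Ces2c and Ces2e), while Ces1g was not called. Calls were made below an adjusted p of 0.05 in edgeR's quasi-likelihood test, with Benjamini-Hochberg adjustment over the 15811 genes tested. By that rule 12.5% of all genes tested were lower, 17.6% were higher and 30.0% were called in either direction. These were 2775 genes higher and 1971 lower, a split that became 4804 and 642 with library totals as the only scaling. Without WT replicate 3 it was 4267 higher (26.0%) and 3837 lower (23.4%). The median log2 fold change of the members was -1.18, against -0.05 over all genes tested. In the 9 called members the 4 KO libraries lay wholly on one side of the 4 WT libraries, as they did in 32.1% of all genes tested. All 10 members passed the filter on low counts.

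Markers of liver cell types were read beside the members. Hepatocyte markers summed to 77095 to 130580 CPM in WT and 51243 to 73671 CPM in KO, and 5 of 13 tested were lower, with a median log2 fold change of -0.64. Cholangiocyte markers summed to 42.8 to 97.0 CPM in WT and 453 to 1108 CPM in KO, with 9 of 10 tested higher. Most of each of these sums came from a single gene. Alb averaged 62388 CPM in WT and 39928 CPM in KO, with overlapping groups and no call (adjusted p = 0.117 by edgeR). Spp1 averaged 42.9 CPM in WT and 772 CPM in KO. Stellate cell and fibroblast markers summed to 267 to 545 CPM in WT and 656 to 945 CPM in KO, with 5 of 11 higher. Of the other marker lists, 2 of 8 endothelial genes were lower, and 1 of 8 macrophage, 2 of 2 neutrophil, 3 of 7 lymphocyte and 1 of 3 intestinal or pancreatic genes tested were higher. Of these other lists, only the macrophage list fell short of the share over all genes, which was 17.6% higher and 12.5% lower. The lists are short, and the counts moved with the settings. With upper-quartile factors 3 hepatocyte and 0 endothelial genes were lower and 2 macrophage genes higher, against 9.01% lower and 20.0% higher over all genes. Without WT replicate 3 those counts were 9, 5 and 3, against 23.4% lower and 26.0% higher over all genes. With library totals only they were 0, 0 and 4, against 4.06% lower and 30.4% higher. In whole liver, fewer cells of a type and less RNA per cell cannot be told apart, and the part of cell type make-up in the carboxylesterase changes was not tested. The log2 fold changes of single hepatocyte markers ran from -1.38 (Tat, not called, adjusted p = 0.0953 by edgeR) to -0.10 (Asgr2). Apart from Tat the lowest was Ass1 at -1.01. Only Tat was thus as low as Ces1c (-1.24), Ces3a (-1.20) and Ces2a (-1.15).

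**Figure D1:**
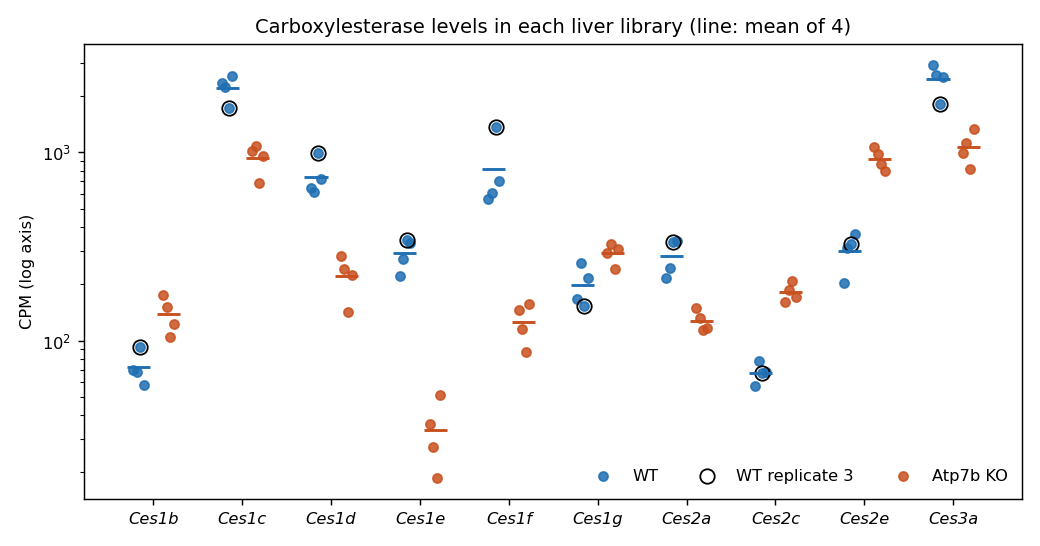
CPM on a log axis for the 10 carboxylesterases, with a point per library (4 WT, 4 Atp7b KO), a line at each group's mean, and a ring around WT replicate 3. The groups separate in every gene but Ces1g, and WT replicate 3 is the highest library for Ces1f at 1368 CPM.

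Levels between genes were compared as CPM per kilobase of exon (RPKM). In WT, Ces1c and Ces3a led with 950 ± 150 and 934 ± 176 RPKM (SD, n = 4), a difference within their spread. Ces1d (313 ± 71.7 RPKM) and Ces1f (247 ± 114 RPKM) followed, and their values overlapped. Ces1e, Ces2a and Ces2e lay close together at 133 ± 25.0, 120 ± 26.5 and 111 ± 25.8 RPKM, ahead of Ces1g at 82.7 ± 20.0, Ces1b at 36.7 ± 7.51 and Ces2c at 29.4 ± 3.60 RPKM. By WT group means, the 6 most abundant members were the 6 that fell, and the called members that rose came from the 4 least abundant. Ces2a and Ces2e, on either side of that split, lay within each other's spread. In WT replicate 2, Ces2e (115 RPKM) and Ces1g (107 RPKM) were above Ces2a (103 RPKM), while in the other WT libraries Ces2a was above both. The WT values also enter the changes, so level and direction were not independent.

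In KO the order was different. Ces3a (406 ± 82.0 RPKM), Ces1c (403 ± 76.1 RPKM) and Ces2e (343 ± 43.6 RPKM) lay within each other's spread at the top, and Ces2e went from rank 7 to rank 3. Ces1e dropped from rank 5 to rank 10, the lowest of the 10 members at 15.2 ± 6.44 RPKM. The summed level of the 10 members was 2961, 2894, 2823 and 3146 RPKM in WT replicates 1 to 4 and 1734, 1752, 1315 and 1693 RPKM in KO. On these TMM-scaled values the pool was 1.82-fold smaller in KO on the group means, and the groups did not overlap. TMM, which scales library totals, gave factors of 0.716 to 0.952 in WT and 1.08 to 1.22 in KO. With library totals only, the fall would be smaller and WT replicate 3 would not lie above every KO library.

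**Figure D2:**
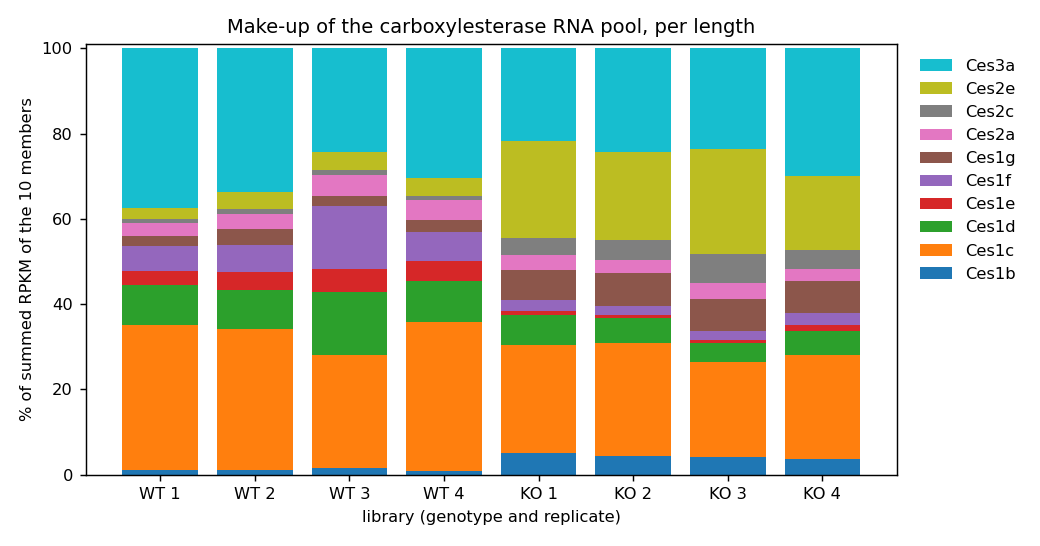
Share of each member in the summed RPKM of the 10 members, as stacked bars for each of the 8 libraries. Ces2e takes 2.53% to 4.31% in WT and 17.4% to 24.5% in KO, while Ces1d, Ces1e and Ces1f shrink.

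The make-up of that pool shifted from Ces1 to Ces2. Ces1 members held 56.0% to 65.2% of the summed RPKM in the WT libraries and 41.2% to 47.9% in KO. Ces2 members held 6.46% to 10.3% in WT and 24.7% to 35.0% in KO, and Ces3a held 24.5% to 37.6% and 21.7% to 29.9%. The groups did not overlap for the Ces1 and Ces2 shares and did overlap for Ces3a. Ces2e made up most of the Ces2 level in KO, at 343 ± 43.6 of 476 ± 46.7 RPKM (SD, n = 4).

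Among the Ces1 genes, those that fell include known triacylglycerol hydrolases of mouse liver. Ces1d encodes the hydrolase that releases fatty acids from stored triacylglycerol for very low density lipoprotein assembly. It read 645, 613, 987 and 721 CPM in WT replicates 1 to 4 and 282, 240, 141 and 222 CPM in KO replicates 1 to 4. Every KO library was below every WT library, and KO replicate 3 was the lowest. Ces1d fell 3.36-fold (log2 fold change -1.75 ± 0.25 SE, adjusted p = 4.88e-04 by edgeR).

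Ces1f, which also hydrolyses triacylglycerol, read 567, 606, 1368 and 702 CPM in WT and 145, 115, 87.0 and 156 CPM in KO. WT replicate 3 was far above the other WT libraries, and the groups did not overlap (WT mean 811 ± 376 CPM, SD, n = 4). Ces1f fell 6.45-fold, a log2 fold change of -2.69 ± 0.33 (adjusted p = 1.62e-04) with all libraries and -2.33 ± 0.20 without WT replicate 3. Ces1e encodes egasyn, which holds beta-glucuronidase in the endoplasmic reticulum. It read 221, 271, 340 and 328 CPM in WT and 35.9, 27.1, 18.5 and 51.6 CPM in KO. This was the largest fall among the 10 members, 8.72-fold (-3.12 ± 0.32, adjusted p = 5.08e-05).

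Ces1c encodes the carboxylesterase secreted into mouse plasma. It read 2336, 2226, 1723 and 2540 CPM in WT and 1022, 1084, 683 and 958 CPM in KO. The lowest WT library, replicate 3, was still above the highest KO library. Ces1c fell 2.36-fold (-1.24 ± 0.22, adjusted p = 0.00158).

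Ces1b rose, and Ces1g was not called. Ces1b, whose enzyme is little studied, read 69.9, 67.8, 92.7 and 57.8 CPM in WT and 175, 151, 105 and 123 CPM in KO. It rose 1.92-fold (0.94 ± 0.21, adjusted p = 0.00715), with WT replicate 3 close to KO replicate 3. That call was lost with the library number as a covariate (0.64, adjusted p = 0.0957).

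Ces1g, which hydrolyses cholesteryl ester and whose loss in mice leads to fatty liver, read 166, 257, 152 and 215 CPM in WT and 293, 326, 240 and 307 CPM in KO. WT replicate 2 lay above KO replicate 3, so the groups overlapped. Its log2 fold change was 0.56 ± 0.21 with adjusted p = 0.065 by edgeR. It was called under 8 of 20 alternatives, among them without WT replicate 3 (0.44, adjusted p = 0.0476), with DESeq2 (0.55, adjusted p = 0.0269) and with library totals only (0.96, adjusted p = 0.0095).

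The Ces2 genes split as well. Ces2a, a liver and intestinal hydrolase of di- and triacylglycerol, read 215, 244, 335 and 337 CPM in WT and 148, 132, 114 and 116 CPM in KO. It fell 2.22-fold (-1.15 ± 0.20, adjusted p = 0.00163). The KO libraries were close to each other, and all were below the lowest WT library.

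Ces2c, a lipid and acylcarnitine hydrolase, read 57.3, 77.5, 67.1 and 68.3 CPM in WT and 160, 185, 207 and 171 CPM in KO. It rose 2.67-fold (1.42 ± 0.17, adjusted p = 1.39e-04), and every KO library was well above the highest WT library. Ces2e, which hydrolyses pyrethroid and other foreign esters, read 203, 310, 324 and 366 CPM in WT and 1064, 974, 869 and 796 CPM in KO. It was the largest rise among the 10 members, 3.08-fold (1.62 ± 0.22, adjusted p = 3.13e-04), and WT replicate 1 was the lowest library.

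Ces3a, an abundant esterase of liver, read 2922, 2561, 1816 and 2513 CPM in WT and 990, 1121, 820 and 1330 CPM in KO. It fell 2.30-fold (-1.20 ± 0.23, adjusted p = 0.00241). WT replicate 3 was the lowest WT library and KO replicate 4 the highest KO library, and they did not meet.

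**Figure D3:**
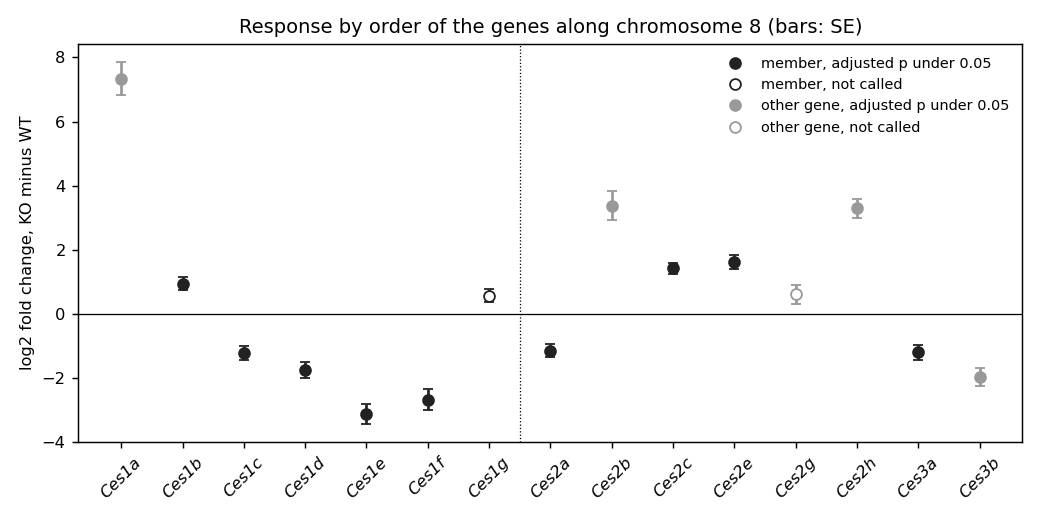
Log2 fold change, KO minus WT, with SE bars, for the 15 carboxylesterase genes that passed the filter, in their order along chromosome 8, with a dotted line between the clusters. Filled points have an adjusted p under 0.05, and both clusters hold genes with changes of either sign, from Ces1a at 7.33 to Ces1e at -3.12.

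Differences between the members' responses were tested directly. For each of the 45 pairs, the log2 CPM of one gene minus the other was compared between genotypes by an exact two-sided permutation test over the 8 libraries, adjusted over the 45 pairs. In 35 pairs the groups differed with adjusted p = 0.0367, which corresponds to the smallest p that 4 against 4 libraries allow (0.0286, exact permutation). Ces1b exceeded its closest relative Ces1c by 2.18 on the log2 scale, and Ces2a minus Ces2e (83.7% identical in coding sequence) was -2.78, both as differences of log2 changes. In these pairs, as in every pair of a called higher and a called lower member, each gene alone already separated the groups. The smallest p was thus fixed beforehand for such pairs, and the test adds nothing to the single calls. All such pairs are among the 35 and entered the adjustment, so 35 is not a count of informative differences. The test could inform only on pairs called in the same direction and on pairs with Ces1g. Among these, Ces1c minus Ces1e was 1.96 and Ces1d minus Ces1f 0.86 (each adjusted p = 0.0367, exact permutation). Ces1c minus Ces1d, at 0.52 (adjusted p = 0.0695), did not pass, nor did the pairs given next.

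The changes of Ces1c, Ces2a and Ces3a were not told apart. Ces1c minus Ces3a was -0.04 (exact permutation p = 0.8, adjusted p = 0.818), Ces1c minus Ces2a was -0.11 (adjusted p = 0.718) and Ces2a minus Ces3a was 0.08 (adjusted p above 0.818). Ces2c minus Ces2e, at -0.23 (adjusted p = 0.306), Ces1e minus Ces1f, at -0.57 (adjusted p = 0.102), and Ces1b minus Ces1g, at 0.35 (adjusted p = 0.306), did not pass the test either. By their single calls, Ces1b and Ces1c (89.2% identical in coding sequence) went in opposite directions, and Ces2c and Ces2e (84.2%) in the same one. A relation of sequence identity to response was not tested.

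**Figure D4:**
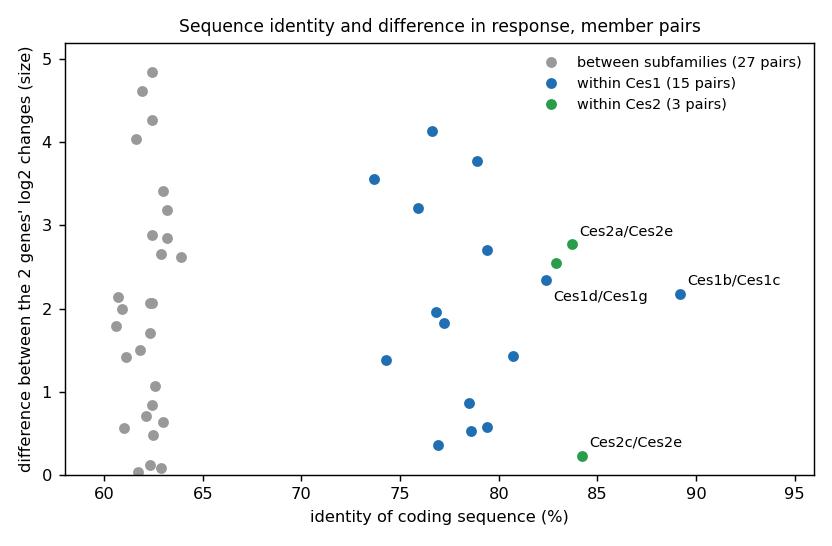
Identity of coding sequence (percent, horizontal axis) and size of the difference between the log2 changes of the 2 genes (vertical axis), a point for each of the 45 pairs of members. Ces1b with Ces1c, at 89.2% identity, differ by 2.18, while Ces2c with Ces2e, at 84.2%, differ by 0.23.

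The 9 other carboxylesterase genes in the table were Ces1a, Ces1h, Ces2b, Ces2f, Ces2g, Ces2h, Ces3b, Ces4a and Ces5a, of which 5 passed the filter. Ces1a, next to Ces1b, had 3, 1, 2 and 0 counts in WT replicates 1 to 4 and 367, 318, 428 and 311 counts in KO. The ratio of summed rates was 176, with a 95% exact interval of 80.8 to 481 that covers counting error only (log2 fold change 7.33 ± 0.52, adjusted p = 5.44e-06 by edgeR). The log2 fold change was 6.66 without WT replicate 4, 7.97 without WT replicate 1 and between these without any other library. Its KO mean, 8.29 ± 2.01 RPKM (SD, n = 4), was below the KO means of all 10 members, but in KO replicate 3 it read 9.67 RPKM against 8.47 RPKM for Ces1e.

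Ces2b and Ces2h were also near silent in WT and rose. Ces2b had 6, 9, 4 and 3 counts in WT and 87, 120, 60 and 61 in KO (3.37 ± 0.45, adjusted p = 2.91e-04). Ces2h had 10, 11, 3 and 14 counts in WT and 113, 188, 106 and 98 in KO (3.29 ± 0.31, adjusted p = 2.93e-05). Ces2b shares 91.7% of its coding sequence with Ces2c.

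Ces3b, 95.3% identical to Ces3a, read 867, 482, 579 and 490 CPM in WT and 179, 174, 91.4 and 169 CPM in KO, with no overlap (-1.98 ± 0.28, adjusted p = 4.15e-04). Ces2g was not called (0.60 ± 0.29, adjusted p = 0.139). The 4 genes that did not pass the filter had few reads. Ces1h had 1 count in all WT libraries and 19 in KO, and Ces2f had 0 and 13. Ces5a had 0 and 6, and Ces4a had 51 and 23.

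Reads of close copies may be divided among them by the authors' counting, which is not described in the sources used here. The share of each member's 50-base transcript windows found in no other annotated gene was 63.9% for Ces2c, 74.4% for Ces3a, 82.7% for Ces2a, 87.0% for Ces1c and 88.4% for Ces1b. For the other 5 members it was 96.7% to 99.1%. With 75-base windows, Ces2c remained the least distinct at 77.9%. Ces2c shared most windows with the pseudogene Ces2d-ps, which had 2 to 14 counts in WT and 4 to 9 in KO, against 474 to 1593 and 2516 to 4022 for Ces2c. Ces2a shared most with the pseudogene Gm7208, which had 44 to 135 counts in WT and 42 to 66 in KO. Ces1b and Ces1c shared most with each other, 190 windows of 50 bases, and averaged 72.1 and 2206 CPM in WT. Whether reads of Ces1c were counted for Ces1b was not tested.

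Ces3a shared most windows with Ces3b, which fell too. A short gene model of unproven status on the other strand within Ces3a, Gm45724 (105051049 to 105051468), went from 224 to 109 CPM (-1.04, adjusted p = 0.0192). The strand setting of the counting is not given, so its reads cannot be told apart from those of Ces3a.

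The library names carry numbers that place WT replicate 3 beside KO replicate 3, and WT replicates 2 and 4 beside KO replicate 4. WT replicate 1 and KO replicates 1 and 2 had no such partner of the other genotype. The labels do not call these batches. In the first of these sets the log2 difference of Ces1e was -4.19, of Ces1f -3.97, of Ces2e 1.42 and of Ces1b 0.18. In the second set they were -2.53, -2.07, 1.24 and 0.97. All 10 members kept the sign of their pooled change in both sets, as values with no test.

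Genes with patterns most like those of the 3 members with the highest mean RPKM were named as a description over the 8 libraries, which share the genotype difference. For Ces1c they were Scd1, the stearoyl-CoA desaturase (r = 0.995), the proline dehydrogenase Prodh (0.994) and Cecr2 (0.994). For Ces3a they were Raph1 (0.993), Hcn3 (0.990) and Tmie (0.989). For Ces2e they were Phkb, a phosphorylase kinase subunit (0.994), Pros1, which encodes protein S (0.993), and Rbbp7 (0.986). Within genotypes, the r of Rbbp7 with Ces2e was 0.976 over the 4 WT and 0.052 over the 4 KO libraries.

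Transcription factors and receptors that act on hepatocyte and drug metabolism genes were mostly lower. Of 17 tested, 10 were lower and 0 higher, against 12.5% and 17.6% over all genes, with a median of -0.99. Nr1i3, the constitutive androstane receptor that induces drug-metabolising enzymes, went from 203 ± 30.7 to 73.2 ± 7.42 CPM (SD, n = 4; -1.47, adjusted p = 1.41e-04 by edgeR). Cebpa (-1.37), Foxa2 (-1.09) and Stat5b (-1.01) fell too. The pregnane X receptor Nr1i2 was at -0.44 (adjusted p = 0.103). Without WT replicate 3, 11 of the 17 were lower and 0 higher, against 23.4% and 26.0% over all genes. With library totals only, 4 of the 17 were lower and 1 higher, against 4.06% and 30.4%, and the call of Stat5b was lost.

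Other ester and lipid hydrolases were more mixed, with 7 of 25 tested lower and 3 higher, and a median of -0.54. Over all genes, 12.5% were lower and 17.6% higher. Mgll, the monoacylglycerol lipase, fell from 158 ± 44.3 to 31.1 ± 8.57 CPM (SD, n = 4; adjusted p = 1.3e-04 by edgeR). Lcat (-0.96) and G0s2 (-1.51), an inhibitor of the lipase Pnpla2, fell, and lipoprotein lipase Lpl (2.90) rose. Without WT replicate 3, 14 were lower and 5 higher, while library totals only gave 2 and 6, against 23.4% lower and 26.0% higher over all genes in the first setting and 4.06% and 30.4% in the second. The call of Lcat was lost with library totals only.

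Of 16 lipoprotein assembly and triacylglycerol storage genes, 4 were lower (Dgat2, -1.09; Plin5, -0.85; Plin2, -0.76; Soat2, -0.52) and 0 higher, with a median of -0.45. The shares over all genes were 12.5% lower and 17.6% higher. Without WT replicate 3, 8 of the 16 were lower and 2 higher, against 23.4% and 26.0% over all genes. With library totals only, 1 was lower and 3 higher, against 4.06% and 30.4%, and the calls of Plin5, Plin2 and Soat2 were lost. The receptors that return luminal proteins to the endoplasmic reticulum, Kdelr1 and Kdelr2, were not called (-0.23, adjusted p = 0.258; -0.08, adjusted p = 0.769), and Kdelr3 rose from 0.511 to 1.65 CPM.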

How the data were processed

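RNA of whole liver from 4 WT and 4 Atp7b KO libraries was used. Per the labels' protocols, RNA was extracted with Trizol, DNase-treated and put through a Qiagen clean-up. Per the submitters' processing notes, FastQC, cutadapt, STAR and mm10 were used, without versions. The authors deposited raw counts per gene, whole numbers with no normalization. The sources used here do not give the counting program, strand setting or annotation release. Genotypes came from the labels, and replicates were numbered by accession, which pairs no samples.

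Genes were kept with filterByExpr (15811), scaled with TMM and compared with edgeR 4.0.16 (limma 3.58.1, R 4.3.3) by the quasi-likelihood test with genotype as the only term. CPM uses TMM-scaled totals, and log2 CPM a prior count of 2. A standard error is the log2 fold change divided by the square root of F. RPKM divides CPM by merged exon length in GENCODE M21, which held 54165 (99.9%) of the identifiers. In each library 3 counts correspond to 0.129 to 0.425 CPM. Coding sequences and 50-base and 75-base windows came from GENCODE M21 transcripts, and a window was unique if no other annotated gene held it. RefSeq upstream windows matched 7 of 10 members, and Ces1d, Ces1f and Ces3a had none. Protein sequences were not used here.

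The members and gene lists were chosen with earlier results of these data known. Named genes are the members, other carboxylesterases, Atp7b, up to 4 genes with the lowest p per list, and the 3 genes (mean of at least 10 CPM) most correlated with each of 3 members. Alternatives, DESeq2 1.42.0 among them, are covered in the closing section. Nr1i2, Gm7208, Gm45724 and the window counts were looked at for their role, shared sequence or position, after values were seen. The procedure was tested on simulated data.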

Additional observations from a re-analysis of the deposited data

Results flagged for a closer look

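A single library stood far from the other 3 of its genotype in 3 of 32 groups checked (16 genes in 2 genotypes), by Dixon's gap test at the 95% level. Chance flags about 1 group in 20. Ces1f in WT replicate 3 read 1368 CPM against 567 to 702 in the other WT libraries. Ces2b in WT replicate 4 read 0.129 CPM, from 3 counts, against 0.528 to 0.566. Ces3b in KO replicate 3 read 91.4 CPM against 169 to 179.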

How the results depend on the processing

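The 6 members lower in KO, and Ces2c and Ces2e, kept their direction and call under all 20 alternatives (other tests, scalings, filters, the covariate and each library left out), and Ces1b under 19. Ces1g was higher in all 20. Leaving out each library gave 3 to 4 members higher and 6 lower, 2325 to 4267 genes higher and 1315 to 3837 lower, the highest counts without WT replicate 3. Higher and lower calls over all genes were 4804 and 642 with library totals only, 4468 and 746 with totals without the 10 most abundant genes, 1353 and 1133 with a mean of at least 5 CPM (fewer genes tested), and 4280 and 3946 with quality weights in limma-voom. No filter gave 4244 higher, the library number covariate 1083 lower, and an adjusted p under 0.01 gave 912 lower. The cause of these shifts was not tested. Over all genes, the median change was 0.37 on the log2 scale when scaled by library totals and 0.32 when those left out the 10 most abundant genes. Uncalled genes changed sign. Kdelr1 was at 0.19 and 0.14 under those 2 scalings, and Kdelr2 at 0.36 and 0.30. Kdelr2 was also at 0.046 with upper-quartile factors, 0.043 with quality weights and 0.0285 at 5 CPM or more. The intestinal and pancreatic genes Fabp2 and Cela1, at -0.49 and -0.20, were at 0.041 and 0.25 with library totals only. Fabp2 was at 0.17 with quality weights, and Cela1 at 0.20 with totals that left out the 10 most abundant genes. Leaving out each library gave -0.16 to 0.0025 for Kdelr2, -0.69 to 0.18 for Fabp2 and -0.37 to 0.098 for Cela1, each highest without WT replicate 3. Replicate numbers follow accession order only, so no analysis paired by them was made. The leading digits of the library names, which the labels do not call pairs, entered as the covariate, which leaves the comparison to WT replicates 2 to 4 and KO replicates 3 and 4. Genes with few WT counts, such as Ces1a, are limited by depth.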

Other observations

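Other genes near the clusters were read as a description. Within 200 kb of the Ces1 cluster, 4 genes other than carboxylesterases were tested. The matrix metalloproteinase gene Mmp2 went from 1.98 to 9.77 CPM (log2 fold change 2.23, adjusted p = 0.00252 by edgeR) and Lpcat2, which encodes an acyltransferase of phospholipid remodelling, from 2.18 to 5.58 CPM (1.38, adjusted p = 0.00136). The pseudogene Gm45727, between Ces1e and Ces1f, went from 2.69 to 0.625 CPM (-2.08, adjusted p = 3.13e-04), in the direction of both neighbours. Over all genes tested, 12.5% were lower and 17.6% higher. Around the Ces2 and Ces3 cluster, 25 other genes were tested, of which 6 were lower and 0 higher. These 6 include Gm45724, which lies within Ces3a, and the pseudogene Gm7208, which shares 399 windows of 50 bases with Ces2a, so neither can be told apart from a member that fell. Among them Pdp2, a pyruvate dehydrogenase phosphatase, went from 37.5 to 19.2 CPM (-0.97, adjusted p = 0.00264). Of the 857 genes tested on chromosome 8 other than carboxylesterases, 28.5% were called, 136 higher and 108 lower. That was close to the 30.0% called over all genes tested. These genes were named after their values were seen.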
